A study of Mus musculus with 13 samples.

Results

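Ildr2, Nptx1, Acpp and Bag2 are 4 genes that were examined in RNA-Seq of mouse endothelial cells (ECs) with and without Apelin. They were found by symbol among the 24984 genes counted in ECs from tumors and the 24421 genes counted in ECs from vessel sprouts. They were selected on their measured levels in tumor ECs, because each Apelin KO library lay below each Apelin WT library, so that order and the size of the drop in tumor ECs describe the choice and carry no test here. The sprout libraries took no part in the choice, and the 4 genes were tested in them.

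Apelin is a secreted peptide that acts on a receptor of ECs and takes part in blood vessel growth. The tumor libraries were made from CD31+ and CD105+ ECs sorted, after live cells without the leukocyte marker CD45 were gated, out of orthotopic tumors of E0771 cells, a mouse mammary carcinoma line, on day 25 after injection, with 100 cells in each library. In the Apelin KO group (n = 3), tumor cells carrying shApln, a hairpin against Apln, grew in Apln-/- hosts, and in the Apelin WT group (n = 6), tumor cells carrying shRenilla, a control hairpin, grew in Apln+/+ hosts. The labels give the strain as C57BL6/J for these libraries, and Apelin was removed from host and tumor cells together, so a part of one cannot be told apart from a part of the other. The sprout libraries were made from CD31+ ECs sorted out of embryoid bodies (EBs), aggregates of mouse embryonic stem cells on a C57BL/6x129 background, which sprouted in collagen gel under VEGF at 30 ng/ml. The cells were a haploid stem cell line with a gene trap between the early exons of Apln, read in sense in the libraries labelled Apln STOP (n = 2), whose EBs received DMSO, and turned to antisense by a Cre retrovirus in the libraries labelled Apln GO (n = 2), whose EBs received Apelin at 1000 nM. The labels give the orientation of the trap, whereas the names STOP and GO and the treatment of each group were taken from the description of the experiment. That description pairs STOP with sense in its text and methods, while the legend of a growth curve uses both names the other way round. Its text also reports that the sense trap disrupted Apln mRNA in the stem cells and that STOP EBs sprouted late under VEGF. Trap orientation, exposure to Cre and added Apelin therefore differ together between the sprout groups and cannot be told apart. Nothing in the labels says whether libraries of a group came from separate mice or separate cultures, and p-values then measure only the spread between these libraries.

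The 4 genes encode unrelated proteins. ILDR2 is a membrane protein of the angulin family, whose members mark the corners where 3 epithelial cells meet and draw in other junction proteins. NPTX1 is a secreted pentraxin that neurons use to cluster AMPA-type glutamate receptors at synapses. ACPP is the prostatic acid phosphatase, a secreted or membrane-bound enzyme that can turn extracellular AMP into adenosine. BAG2 is a co-chaperone that binds Hsp70 through its BAG domain, promotes nucleotide release and restrains the ubiquitin ligase CHIP, the product of Stub1. None of the 4 is a textbook marker of ECs.

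The genes lie apart in the genome. In GENCODE vM21 on GRCm38, Ildr2 spans chr1:166254139-166316823 on the plus strand and has 7 coding transcripts of 4 to 10 exons. Bag2 spans chr1:33745484-33757795 on the minus strand with 2 coding transcripts of 2 or 3 exons. Acpp spans chr9:104288251-104337748 on the minus strand with 3 coding transcripts of 4 to 11 exons, and Nptx1 spans chr11:119538719-119547753 on the minus strand with 1 coding transcript of 5 exons. The exons of Ildr2 share 911 bases with the antisense gene 5330438I03Rik, and those of Bag2 share 131 bases with the opposite-strand gene Gm37905. Whether the counting used strand is not given in the sources used here, so reads from these shared bases cannot be assigned to 1 of the overlapping genes.

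The sequences before the start sites are shown because the 4 genes were chosen for the same order of the groups in tumor ECs, and they let a reader see what these starts share. RefSeq entries on GRCm38.p6 were matched for 3 of the 4 genes. The 250 bases before the start were taken at chr1:166253889-166254138 on the plus strand for Ildr2, at chr9:104337723-104337972 on the minus strand for Acpp and at chr1:33757751-33758000 on the minus strand for Bag2. The RefSeq starts of Acpp and Bag2 lie inside the GENCODE spans given above, so that 26 bases of the Acpp window and 45 bases of the Bag2 window fall within those spans. Each window is written 5′ to 3′ along the gene, with every CG dinucleotide in capitals:
Ildr2: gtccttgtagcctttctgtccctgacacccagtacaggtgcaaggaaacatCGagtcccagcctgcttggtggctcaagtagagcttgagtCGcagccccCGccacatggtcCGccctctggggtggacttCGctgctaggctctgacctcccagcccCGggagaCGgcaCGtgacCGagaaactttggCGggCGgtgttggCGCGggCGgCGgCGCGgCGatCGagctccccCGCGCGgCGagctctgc
Acpp: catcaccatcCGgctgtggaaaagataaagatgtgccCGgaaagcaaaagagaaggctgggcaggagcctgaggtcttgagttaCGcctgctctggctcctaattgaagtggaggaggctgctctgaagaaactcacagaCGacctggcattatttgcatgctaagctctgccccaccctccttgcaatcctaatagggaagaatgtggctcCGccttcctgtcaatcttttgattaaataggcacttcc
Bag2: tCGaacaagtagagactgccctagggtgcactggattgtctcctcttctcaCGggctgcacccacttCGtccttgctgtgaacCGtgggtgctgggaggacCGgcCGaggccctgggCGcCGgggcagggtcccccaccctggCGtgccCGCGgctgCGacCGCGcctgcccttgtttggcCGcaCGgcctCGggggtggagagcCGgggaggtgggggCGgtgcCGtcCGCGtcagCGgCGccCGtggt
The starts of Ildr2 and Bag2 were rich in CG and that of Acpp was not. Ildr2 held 23 CG dinucleotides at a GC content of 66.8%, and Bag2 held 25 at 72.0%, against a median of 6 over 32841 windows of the same kind. Acpp held 5 CG dinucleotides at a GC content of 50.4%. Among all windows, the CG number of Ildr2 stood at percentile 88.0, that of Bag2 at 90.4 and that of Acpp at 49.6. Of 6 short motifs searched on both strands, none was present in all 3 windows. GGGCGG, which itself contains a CG, occurred 3 times in Ildr2, once in Bag2 and 0 times in Acpp, and 32.7% of all windows held it. GGAA occurred once in Ildr2, 5 times in Acpp and 0 times in Bag2, and 93.5% of all windows held it. ACGTG, which also contains a CG, was read on each strand of a single place in Ildr2, and 16.6% of windows held it. CCAAT was in none of the 3 windows and in 33.9% of all windows. TATAAA was likewise missing, and 12.4% of all windows held it. The same was true of TGANTCA, held by 6.8% of all windows. These matches describe letters in a window and nothing more.

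Total counts lay between 4661044 and 14455093 in the tumor libraries and between 12327030 and 16804071 in the sprout libraries. The floor used below, 3 counts, corresponds to 0.211 to 0.596 CPM (counts scaled to library size with TMM factors) in tumor libraries and to 0.177 to 0.244 CPM in sprout libraries. Apln, the targeted gene, stood at 2.44 to 12.1 CPM in the Apelin KO tumor libraries and at 416 to 1033 CPM in the Apelin WT libraries. In sprout ECs the level of Apln in libraries labelled STOP did not lie below that in GO, with 66.1 and 80.2 CPM against 58.2 and 65.9 CPM, so directions between sprout groups are given by library label. The summed level of 12 EC markers was 11028 to 14152 CPM in Apelin KO and 8392 to 12451 CPM in Apelin WT tumor libraries, with 0 markers at 0 in any library. All 12 had higher fitted levels in KO, with a median log2 fold change of 0.36 beside −0.03 over all tested genes. Of these, 0 passed the thresholds given below, and 1 was higher at an unadjusted p under 0.05 by edgeR. The part of this difference in the tumor results was not tested. In sprout ECs the sum of the 12 EC markers was 646 and 869 CPM in STOP and 2470 and 2580 CPM in GO libraries, and 11 of the 12 EC markers fell in STOP past the thresholds given below. The summed level of 8 pluripotency markers was 5553 and 5419 CPM in STOP against 2077 and 3497 CPM in GO libraries, and the part of this difference in cell content in the sprout results was not tested. In bulk samples such as these, fewer cells of a type and less RNA per cell cannot be told apart.

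In ECs from Apelin KO tumors each of the 4 genes was at a lower level than in every Apelin WT library, and the WT levels varied from library to library. All 4 had enough counts to enter the fit of 13073 genes. The mean of the WT libraries was 9.18-fold that of the KO libraries for Ildr2, 7.74-fold for Nptx1, 38.9-fold for Acpp and 8.60-fold for Bag2. These sizes follow in part from the choice of the genes. For Acpp the KO libraries held so few counts that its WT libraries alone carried it through the filter on low counts. Ildr2 and Bag2 also needed WT libraries to pass. Ildr2 in KO replicate 1, with 6 counts, and Bag2 in KO replicate 3, with 10 counts, lay below the level the filter asks for. Of the members, only Nptx1 would have passed on its KO libraries.

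Ildr2, the angulin, had 6, 23 and 32 counts in KO replicates 1 to 3, which is 1.02, 1.62 and 3.90 CPM. In Apelin WT it ranged from 12.3 CPM in replicate 2 to 35.7 CPM in replicate 3, with a median of 17.3 CPM. KO replicate 3 was the highest of its group, and the lowest WT library still had 3.16 times its level. The log2 fold change was −3.19 with a standard error (SE) of 0.77, and without KO replicate 3 it was −3.89. Ildr2 was the steadiest of the 4 genes in WT, where its highest library had 2.90 times the level of its lowest.

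Nptx1, the pentraxin, had 27, 35 and 89 counts in KO replicates 1 to 3, or 4.59, 2.46 and 10.8 CPM. In Apelin WT it ranged from 22.9 CPM in replicate 5 to 90.9 CPM in replicate 2, with a median of 31.4 CPM. WT replicates 2 and 3 stood apart from the rest at 90.9 and 77.0 CPM, while the other 4 WT libraries lay between 22.9 and 32.6 CPM. KO replicate 3 came closest to the WT group, whose lowest library had 2.11 times its level. The log2 fold change was −2.96 (SE 0.68), and without KO replicate 3 it was −3.73. WT replicate 2 was also the library with the highest sum of 12 fibroblast and mural markers, at 5407 CPM against 91.2 to 419 CPM in the other WT libraries and 90.7 to 191 CPM in KO libraries. Without WT replicate 2 the log2 fold change of Nptx1 was −2.64, and WT replicate 3, the next highest for Nptx1, had a marker sum of 244 CPM. Over the whole list, all 11 fibroblast and mural markers with enough counts had lower fitted levels in KO, with a median log2 fold change of −2.22. None of the 11 was called by edgeR, where 2 were lower at an unadjusted p under 0.05, and DESeq2 called 1. Between 0 and 2 of the 12 markers were at 0 in each library, and their part in the level of any of the 4 genes was not tested.

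Acpp, the phosphatase, was close to the floor in Apelin KO, with 3, 3 and 7 counts in replicates 1 to 3, or 0.51, 0.21 and 0.85 CPM. In Apelin WT it spread most of the 4 genes, from 2.44 CPM in replicate 2 and 3.30 CPM in replicate 5 to 47.7 CPM in replicate 3, with a median of 19.8 CPM. The groups did not overlap, but WT replicates 2 and 5 lay far below the other 4 WT libraries. By counting error alone, the 95% exact Poisson interval of KO replicate 3 was 0.343 to 1.76 CPM and that of WT replicate 2 was 1.58 to 3.61 CPM, so these intervals overlap. Reads amplified by PCR without molecular identifiers are not independent molecules, and these intervals cover counting error only. The log2 fold change was −5.28 (SE 1.16). The highest WT library had 19.5 times the level of the lowest, and the spread of log2 levels among WT libraries was at percentile 94.3 of all tested genes for Acpp, against percentiles 28.8 to 61.7 for the other members.

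Acpp shared part of its order with neutrophil markers. Ildr2, like Acpp, had its lowest WT levels in replicates 2 and 5, at 12.3 and 13.9 CPM. Bag2 was lowest in WT replicates 1 and 2, and Nptx1 in WT replicates 5 and 6. The summed level of 10 neutrophil markers was 0.244 to 3.31 CPM in KO and 2.54 to 43.5 CPM in WT libraries, with the lowest WT sums of 2.54, 10.1 and 12.4 CPM in replicates 2, 5 and 6. Between 4 and 8 of these markers were at 0 in each KO library and between 1 and 6 in each WT library. All 3 neutrophil markers with enough counts had lower fitted levels in KO, and 0 of them passed edgeR's thresholds, while 2 had an unadjusted p under 0.05 by edgeR and 2 passed the thresholds of DESeq2. With a sum of 0.244 CPM in KO replicate 3, no neutrophil marker could pass the filter on low counts through KO alone. Their shared direction therefore follows in part from that filter. The sort kept cells without the leukocyte marker CD45. Summed macrophage markers, of another leukocyte, were 55.5 to 1084 CPM in KO and 71.1 to 641 CPM in WT libraries of the same sort. The part of neutrophil or macrophage markers in the level of Acpp or of the other 3 genes was not tested. Without WT replicate 2, the lowest WT library for both Acpp and the neutrophil sum, the log2 fold change of Acpp was −5.51. It was −4.81 without WT replicate 3, which was highest for Acpp and had a neutrophil sum of 23.8 CPM. Without WT replicate 4, which had the highest neutrophil sum at 43.5 CPM, it was −5.14.

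Bag2, the co-chaperone, had 13, 30 and 10 counts in KO replicates 1 to 3, or 2.21, 2.11 and 1.22 CPM. In Apelin WT it ranged from 7.31 CPM in replicate 1 and 7.43 CPM in replicate 2 to 27.5 CPM in replicate 3, with a median of 16.6 CPM. The KO libraries were within a factor of 1.81 of each other, the narrowest range of the 4 genes in KO. The lowest WT library had 3.31 times the level of the highest KO library. The log2 fold change was −3.09 (SE 0.83).

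**Figure D1:**
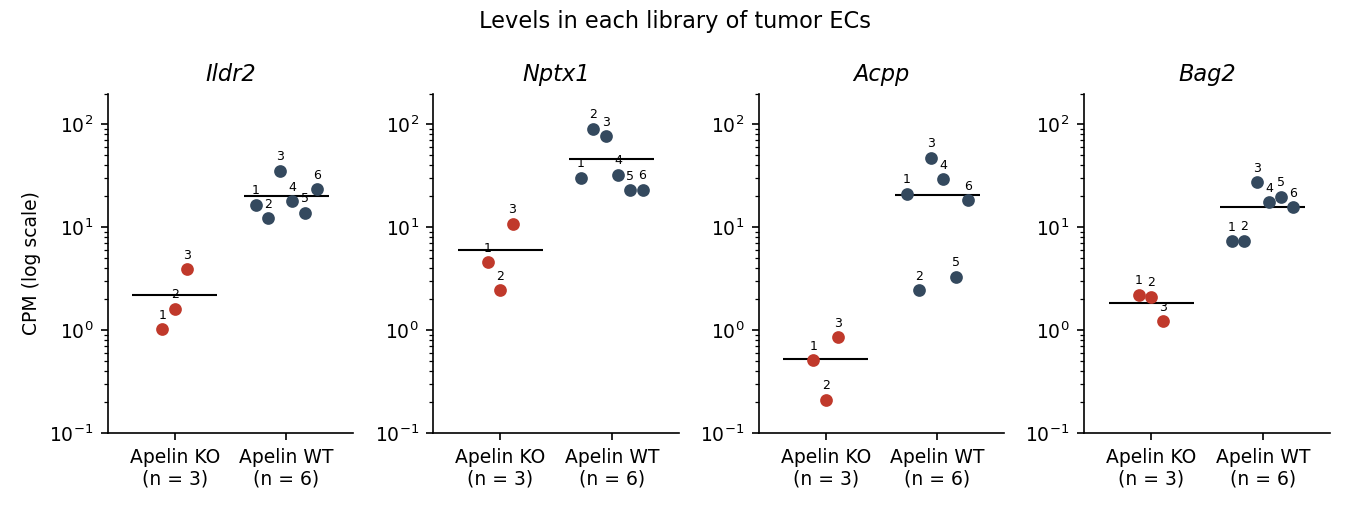
CPM of each gene (log axis) in each library of tumor ECs, with Apelin KO in red (n = 3) and Apelin WT in dark blue (n = 6). Points carry the replicate number and the black line is the group mean. No gene has a KO point as high as its lowest WT point, and the WT points of Acpp spread from 2.44 to 47.7 CPM.

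The calls on these genes depended on the tool. With edgeR's quasi-likelihood test, 0 of the 4 genes passed and Apln alone did, which is 0.00765% of the genes tested, where passing means a Benjamini-Hochberg (BH) adjusted p under 0.05 together with a log2 fold change of at least 1 in either direction. With the DESeq2 Wald test at the same thresholds, 4 of 4 passed, where 0.671% of 14461 genes were called lower. A log2 fold change of −1 or less was reached by 4 of the 4 and by 11% of all tested genes. Every KO library lay below every WT library for 1.27% of the tested genes, 166 in all, and for these 4 by the rule. The rule used this contrast, so nothing is read from these counts.

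The order of the libraries, by which the 4 genes were chosen, was the same on raw counts, on CPM without TMM and on DESeq2 size factors. Measured on log2(CPM + 1) from the highest KO to the lowest WT library, the gap was 1.44 for Ildr2, 1.37 for Bag2, 1.01 for Nptx1 and 0.89 for Acpp. These gaps ranked 3, 4, 10 and 14 among 13073 genes. Because the rule asked for a gap, the ranks describe the choice. At the edge of the rule, Cpxm1 lay just inside, with 0.422 CPM in its highest KO and 0.424 CPM in its lowest WT library. The gene 1700001K19Rik lay just outside with 0 CPM in both. A fitted drop at least as large as the smallest among the members was seen in 304 genes other than Apln, and in 60 of these the groups did not overlap. In the opposite direction, 139 genes had every KO library above every WT library.

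**Figure D2:**
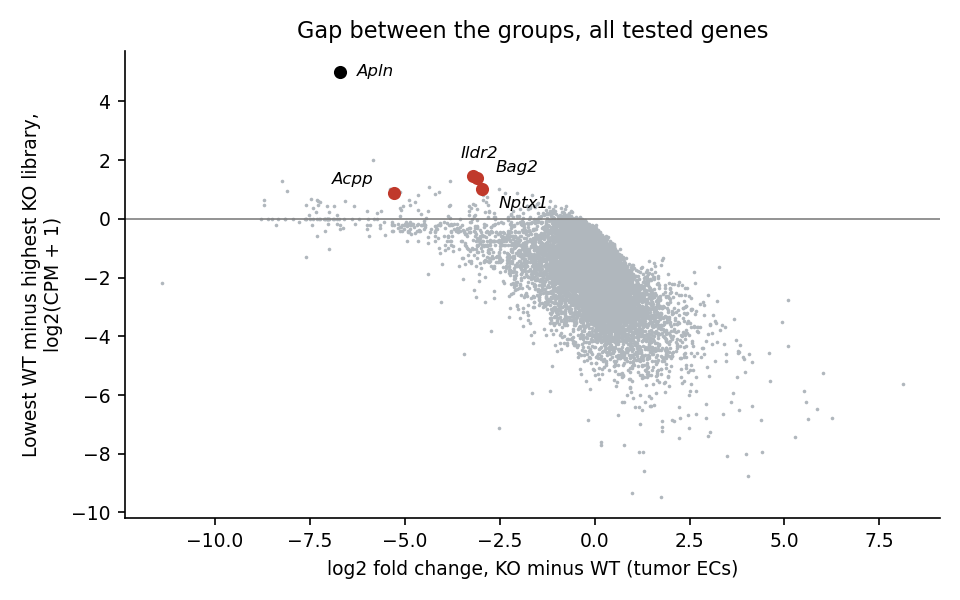
Gap between the groups (lowest WT minus highest KO library, log2(CPM + 1)) against the log2 fold change of KO minus WT for 13073 genes of tumor ECs (grey). The members (red) lie between 0.89 and 1.44 above the zero line that separates genes with and without overlap, and Apln (black) lies above them.

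The 4 genes did not share 1 order among the WT libraries. WT replicate 3 was the highest WT library for Ildr2, Acpp and Bag2, as for 19.9% of all tested genes, and WT replicate 2 was the highest for Nptx1, as for 16.6%. The lowest WT library was replicate 2 for Ildr2 and Acpp, as for 17.2% of all tested genes. It was replicate 1 for Bag2, as for 15.7%, and replicate 5 for Nptx1, as for 26.1%. Over the 6 WT libraries, the levels of Ildr2 and Acpp on log2(CPM + 1) had a Pearson r of 0.83 and a Spearman rho of 0.83, and r was 0.64 without the 2 libraries farthest from the median of Ildr2. Ildr2 and Bag2 had r of 0.67 and rho of 0.49, which became r of −0.03 without the 2 farthest libraries, so this relation rests on them. Acpp and Bag2 had r of 0.42 and rho of 0.43, and r was 0.75 without the 2 libraries farthest from the median of Acpp. Nptx1 had r of 0.14 to Ildr2, −0.04 to Acpp and −0.11 to Bag2, which became −0.06, 0.73 and −0.44 without its 2 farthest libraries, so its relation to Acpp changed with the libraries used. These 6 pairs share the same libraries and their depth, and the values are descriptions.

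The genes with the most similar pattern over the 6 WT libraries differed for each member. For Ildr2 they were Ddx47 (r = 0.995), Ssh2 (r = 0.991) and Creg2 (r = 0.985). For Nptx1 they included Cd36 (r = 0.989) and Ksr1 (r = 0.984). Cd36 encodes a fatty acid transporter of microvascular ECs, and its level ran from 121 to 977 CPM in WT and from 165 to 291 CPM in KO. For Acpp they were Ranbp3 (r = 0.987), Fryl and Thra (r = 0.985 for both), and for Bag2 they were A930033H14Rik (r = 0.988), Wrap73 (r = 0.983) and Jmjd6 (r = 0.977). With 6 libraries high values are common, and between 85 genes for Bag2 and 145 genes for Nptx1 reached r of 0.9. In each of the genes named here the ranges of the KO and WT libraries overlapped, whereas the members were chosen because theirs did not. Every KO library lay below every WT library in 1.27% of all tested genes.

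To compare levels between genes, CPM were divided by the transcript length in kilobases. In WT tumor ECs the order of this level per length was Bag2 with 8.74 ± 4.25 (SD, n = 6), Nptx1 with 8.73 ± 5.65, Acpp with 4.69 ± 3.91 and Ildr2 with 2.42 ± 1.04 CPM per kilobase. Neighbours in this order differed by less than the larger SD of each pair, though not always by less than the smaller. In KO tumor ECs the order was Nptx1 with 1.13 ± 0.825 (SD, n = 3), Bag2 with 1.02 ± 0.301, Ildr2 with 0.264 ± 0.184 and Acpp with 0.121 ± 0.0739 CPM per kilobase. Of neighbours in this order, only the libraries of Bag2 and Ildr2 did not overlap. Acpp thus stood above Ildr2 in the mean of WT and below it in the mean of KO, each time by less than the larger SD of the pair. Without division by length, the mean WT level of the members stood between percentiles 38.3 and 65.1 of all tested genes.

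The comparison of sprout ECs asked whether the same 4 genes differ between the libraries labelled STOP and GO in the culture system, where Apln itself was not lower in STOP. None of the 4 passed the thresholds of edgeR's quasi-likelihood test in the libraries labelled STOP against those labelled GO, in a fit of 14557 genes in which 3.03% were called lower and 0.852% higher. Bag2 alone had an unadjusted p under 0.05, in a fit in which 14.3% of the genes were lower and 12.4% higher at that level. DESeq2 called 0 of the 4, where it called 4.65% of 13492 genes lower and 1.47% higher. Each of the 4 passed the filter on low counts.

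Bag2 had 129 and 143 counts in STOP and 286 and 214 counts in GO replicates 1 and 2, or 8.74 and 11.7 CPM against 16.9 and 17.3 CPM. Both STOP libraries lay below both GO libraries, as for 29.6% of the tested genes. The log2 fold change was −0.75 (SE 0.24, 95% interval −1.31 to −0.18, unadjusted p = 0.0156, BH-adjusted p = 0.107 by edgeR). This did not pass the adjusted threshold. Over 11 alternatives the adjusted p of Bag2 from edgeR or DESeq2 ran from 0.0188 to 0.467 and its log2 fold change from −0.98 to −0.53. Bag2 was thus lower in the libraries labelled STOP in each of these, at less than the fold set as threshold.

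Ildr2 had 74 and 105 counts in STOP and 262 and 60 counts in GO replicates, or 5.01 and 8.55 CPM against 15.5 and 4.84 CPM. The groups overlapped, and GO replicate 1 was far above the rest. The log2 fold change was −0.60 (SE 0.60, 95% interval −2.12 to 0.92, BH-adjusted p = 0.575 by edgeR), and without GO replicate 1 it was 0.48. STOP replicate 2 and GO replicate 1, the higher library of each group for Ildr2, also had the higher sums of 12 fibroblast and mural markers, at 3359 and 3502 CPM against 716 CPM in STOP replicate 1 and 881 CPM in GO replicate 2. The part of this difference in the level of Ildr2 was not tested.

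Nptx1 had 57 and 36 counts in STOP and 57 and 51 counts in GO replicates, or 3.86 and 2.93 CPM against 3.36 and 4.12 CPM. The groups overlapped, with a log2 fold change of −0.13 (SE 0.37, 95% interval −0.99 to 0.73, BH-adjusted p = 0.850 by edgeR). Acpp had 21 counts in both STOP libraries and 25 and 17 counts in GO replicates, or 1.42 and 1.71 CPM against 1.47 and 1.37 CPM. Its groups overlapped too, with a log2 fold change of 0.13 (SE 0.46, 95% interval −0.94 to 1.2, BH-adjusted p = 0.880 by edgeR). The intervals of Nptx1, Acpp, Ildr2 and Bag2 in sprout ECs leave room for changes of up to about the fold set as threshold or beyond it, and do not show that a gene is equal in the groups.

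**Figure D3:**
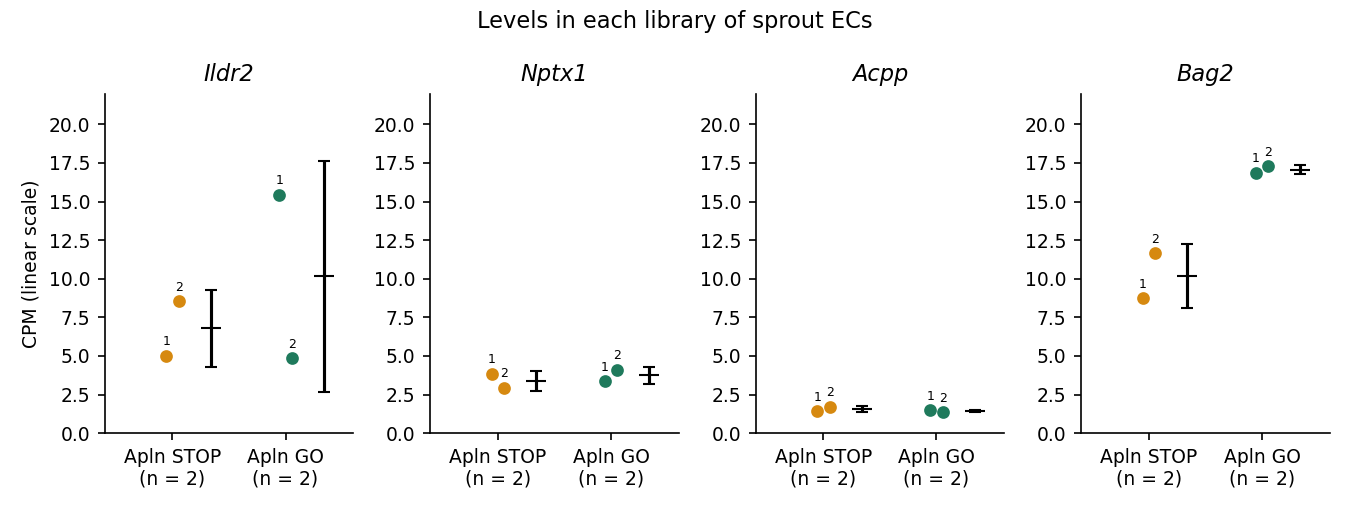
CPM of each gene (linear axis) in each library of sprout ECs, with Apln STOP in orange and Apln GO in green (n = 2 each). Points carry the replicate number, and the bar beside them gives the mean and its SD. Bag2 lies at 8.74 and 11.7 CPM in STOP and at 16.9 and 17.3 CPM in GO, and the other genes overlap between groups.

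The deposited TPM, which take transcript length into account, gave the order of the 4 genes within sprout ECs. Bag2 had 7.78 ± 1.53 TPM (SD, n = 2) in STOP and 14.8 ± 1.13 TPM in GO libraries. Ildr2 had 1.10 ± 0.396 TPM in STOP and 1.96 ± 1.54 TPM in GO libraries, and Nptx1 had 0.86 ± 0.198 and 1.07 ± 0.0212 TPM. Acpp was the lowest with 0.505 ± 0.00707 and 0.505 ± 0.0778 TPM. Bag2 was above the other 3 in every sprout library, whereas Ildr2 and Nptx1 differed by less than the larger SD of the pair in each group.

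**Figure D4:**
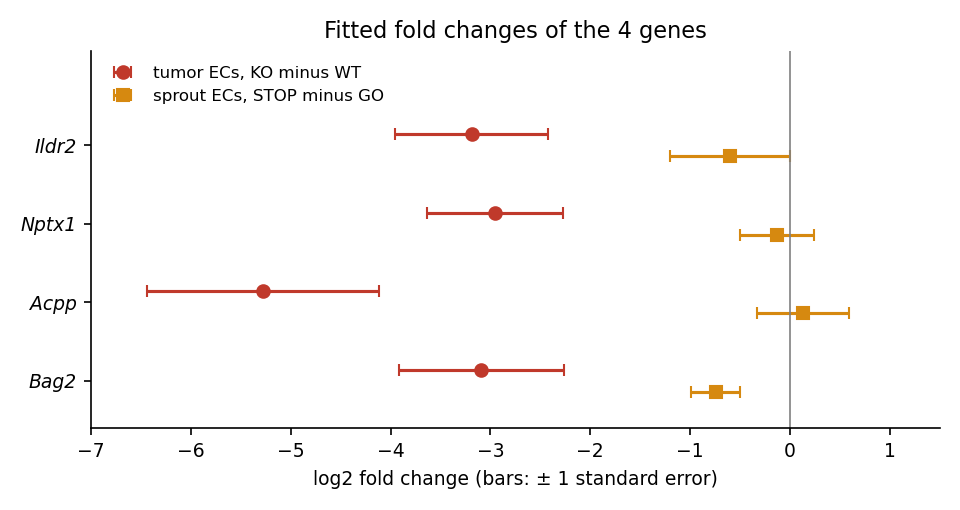
Fitted log2 fold change of each gene with its standard error, for tumor ECs (red circles, Apelin KO minus WT, the contrast used to choose the genes) and sprout ECs (orange squares, Apln STOP minus GO). The tumor values lie between −5.28 and −2.96 and the sprout values between −0.75 and 0.13.

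The families and partners of the 4 proteins were then followed through lists of genes. In tumor ECs none of the 6 lists held a gene that passed the thresholds, with edgeR or with DESeq2, and the median log2 fold change was −0.03 over all tested genes. At an unadjusted p under 0.05 by edgeR, 1 of the 52 tested list genes was lower in KO, Adk, and 2 were higher, Bag6 and Hspa1a, beside 2.94% lower and 1.87% higher of all tested genes. Of 11 genes of angulins and tricellular or tight junctions, 7 were tested, with a median log2 fold change of −0.01. Ocln, an occludin of tight junctions, had −2.24 (SE 1.59) and Marveld2, tricellulin, had 1.94 (SE 1.41), both with few counts. F11r, the junctional adhesion molecule A, had 0.38 (SE 0.33). Of 11 genes of pentraxins and AMPA receptors, 4 were tested, with a median of 0.14. The long pentraxin Ptx3 had 0.53 (SE 2.12), the pentraxin receptor Nptxr had 0.34 (SE 1.70), and Adam17, a protease that sheds membrane proteins, had −0.08 (SE 0.39).

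Of 9 acid phosphatase symbols, 6 were tested in tumor ECs, and their median log2 fold change was 0.00. The 3 with the lowest p were Acp4 with −4.46 (SE 2.22), at 0 to 8.40 CPM in WT, the inositol phosphatase Minpp1 with 0.47 (SE 0.49) and Acp5, the tartrate-resistant enzyme of osteoclasts and macrophages, with 1.01 (SE 1.31). Of 16 genes of extracellular nucleotides and adenosine, 12 were tested, with a median of 0.26. Adk, adenosine kinase, had −1.46 (SE 0.67) and an unadjusted p of 0.0428, with a BH-adjusted p of 1.000 by edgeR. Adora2a, an adenosine receptor, had −2.22 (SE 1.10), and Ada, adenosine deaminase, had 0.89 (SE 0.50).

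The relatives of Bag2 had fitted values in both directions in tumor ECs. Of the other 5 BAG genes, all tested, 4 had lower and 1 had higher fitted levels in KO, with a median log2 fold change of −0.11. Bag6, a chaperone of membrane protein precursors, had 1.01 (SE 0.31) with 88.4 to 121 CPM in KO and 39.7 to 69.9 CPM in WT libraries. Its unadjusted p was 0.00547 and its BH-adjusted p 0.906 by edgeR, and the direction is opposite to that of Bag2. Bag4, which binds death receptors, had −1.23 (SE 0.77), and Bag5 had −0.68 (SE 0.50). Of 18 genes of Hsp70 and Hsp90 chaperones and their partners, all tested, 5 had lower and 13 had higher fitted levels in KO, with a median of 0.13. The inducible chaperone Hspa1a had 0.77 (SE 0.35, unadjusted p = 0.0415, BH-adjusted p = 1.000 by edgeR), Hsph1 had 0.64 (SE 0.32) and the constitutive Hspa8 had 0.43 (SE 0.30).

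In sprout ECs 3 genes of these lists fell in the libraries labelled STOP past the thresholds and 0 rose, out of 61 tested, where 3.03% of all genes were called lower and 0.852% higher, and the median was 0.01 over all tested genes. At an unadjusted p under 0.05 by edgeR, 11 of the 61 were lower and 13 higher, beside 14.3% and 12.4% of all genes, and DESeq2 called 5 lower and 0 higher, beside 4.65% and 1.47% of all genes. Cldn5, the claudin of endothelial tight junctions and also one of the EC markers, had 25.7 ± 11.2 CPM (SD, n = 2) in STOP against 109 ± 18.4 CPM in GO libraries, a log2 fold change of −2.10 (SE 0.33, BH-adjusted p = 0.0327 by edgeR). Without GO replicate 1 or GO replicate 2 its adjusted p was 0.177 or 0.0890. Gria2, an AMPA receptor subunit and so a partner of neuronal pentraxins, had 1.26 ± 0.635 CPM against 11.2 ± 1.80 CPM, a log2 fold change of −3.17 (SE 0.42, BH-adjusted p = 0.00909 by edgeR), which was −3.78 without STOP replicate 2. Nt5e, the ecto-enzyme CD73 that like ACPP turns AMP into adenosine, had 11.2 ± 2.14 CPM against 27.0 ± 1.25 CPM, a log2 fold change of −1.27 (SE 0.22, BH-adjusted p = 0.0216 by edgeR). Without STOP replicate 1 or GO replicate 1 the adjusted p of Nt5e was 0.131 or 0.0884. With the replicate number as a block Gria2 and Nt5e did not pass, with adjusted p of 0.0548 and 0.101 from edgeR. Acpp, which shares the substrate of Nt5e, and Nptx1, which shares a synaptic partner with Gria2, did not pass in the same fit, as given above. These falls stood beside the lower sum of EC markers in the same libraries, and the part of that sum in them was not tested.

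The other list genes of sprout ECs did not reach both thresholds with edgeR. DESeq2 called 2 more, the adenosine receptor genes Adora1 with a log2 fold change of −1.61 (BH-adjusted p = 0.00512 by DESeq2, 0.0505 by edgeR) and Adora2a with −1.98 (BH-adjusted p = 0.000746 by DESeq2, 0.0548 by edgeR), named after their values were seen. Of the other 5 BAG genes, Bag3, a co-chaperone of stressed cells, was at −0.86 on the log2 scale (SE 0.15, BH-adjusted p = 0.0211 by edgeR), under the fold set as threshold, and Bag5 had −0.59 (SE 0.19). Bag4 had 0.60 (SE 0.16), and the median of the 5 was −0.02. Bag2 and Bag3 thus had fitted values of −0.75 and −0.86 in the same libraries. All 18 chaperone genes were tested, with a median of 0.10, and Hsph1 with 0.57, Hspb1 with 0.57 and Hspa8 with 0.47 had the lowest p among them. Of the acid phosphatases, 6 were tested, with a median of 0.16. The lysosomal Acp2 had −0.64 (SE 0.17), Acp5 had 0.65 (SE 0.30) and Acp6 had 0.57 (SE 0.24), and without GO replicate 2 Acp5 passed with a log2 fold change of 1.15. The medians of the 11 junction genes, the 7 tested pentraxin and AMPA receptor genes and the 14 tested nucleotide genes were 0.22, −0.29 and 0.14.

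**Figure D5:**
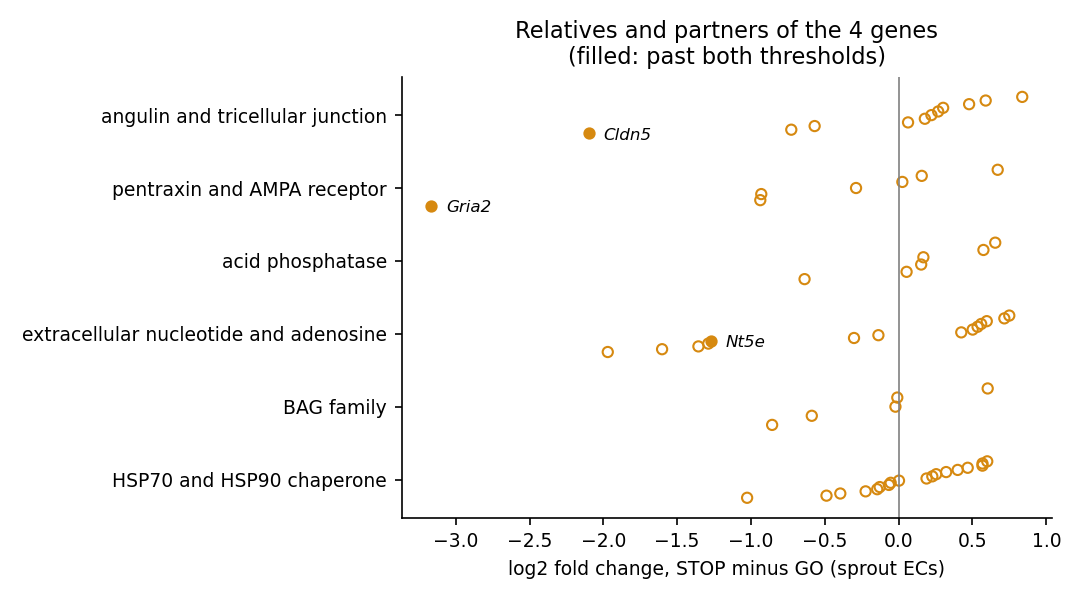
Log2 fold change of STOP minus GO in sprout ECs for each tested gene of the 6 lists, 1 circle per gene. Filled circles passed both thresholds and are Cldn5, Gria2 and Nt5e, all lower in the libraries labelled STOP.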

How the data were processed

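RNA-Seq counts of 9 tumor EC libraries and 4 sprout EC libraries were used. For tumor ECs the authors aligned single-end reads, counted them per gene with featureCounts of Subread 1.6.2 and deposited whole-number counts without normalization. The described methods name STAR as aligner, while the processing notes list Bowtie2 2.3.4.1 with no role. For sprout ECs the authors aligned reads with STAR 2.5.0a, counted unique reads with HTSeq 0.6.1p1 and deposited these counts, in which 42.6% to 49.6% of reads were tallied as not unique and are left out of library sizes. For the same libraries the authors deposited expected counts and TPM from RSEM 1.2.25, of which the TPM were used as they are and the expected counts, rounded, as an alternative. The processing notes give mm10.

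Counts were normalized by TMM and tested with edgeR 4.0.16 (filterByExpr with a minimum count of 10, quasi-likelihood, Benjamini-Hochberg adjustment over all tested genes), 1 fit for each set of ECs, in R 4.3.3. Genes passed with an adjusted p under 0.05 and a log2 fold change of at least 1 in size. Alternatives were DESeq2 1.42.0, its size factors in edgeR, no filter or a mean of at least 10 counts, the replicate number as a block, limma 3.58.1 voom with quality weights, the expected counts and each library left out. Leaving out Apelin KO replicate 1 and WT replicates 2 and 4 together and a block with crossed numbers were added after the data were seen. Members and lists were chosen with earlier results of these data known. Named genes are the members and Apln, each list gene past the thresholds or, in a list with none, the 3 with the lowest p, the 3 most similar genes of each member over WT libraries, and the genes at the edge of the rule. One gene that this rule names is not reported here. Promoter windows and gene models came from RefSeq and GENCODE on GRCm38. Replicates of a group differed by more than counting error in every pair of libraries, and chi-square over its degrees of freedom was 18.1 to 155. Precision is limited by 100 cells per tumor library and by 2 libraries per sprout group.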

Additional observations from a re-analysis of the deposited data

Results flagged for a closer look

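Among 13 sets of values over the 6 Apelin WT tumor libraries (members, Apln and summed markers of 8 cell types, ECs included), 2 had a library farther from the others than Dixon's limit allows, where chance gives about 1 in 20. The summed macrophage markers reached 641 CPM in WT replicate 4, against 71.1 to 207 CPM in the other WT libraries. The summed fibroblast and mural markers reached 5407 CPM in WT replicate 2, against 91.2 to 419 CPM in the other WT libraries. None of the 4 genes themselves had such a library. With these 2 WT libraries and Apelin KO replicate 1 (macrophage sum 1084 CPM) left out together, the log2 fold changes in tumor ECs were −3.03 for Ildr2, −2.55 for Nptx1, −5.44 for Acpp and −3.39 for Bag2. The cause of the high sums was not tested.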

How the results depend on the processing

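In tumor ECs the 4 genes kept a log2 fold change of −1 or less under all 16 alternatives, and in sprout ECs 0 of 4 passed under all 11. The values of the 4 genes in tumor ECs are descriptions, since this contrast was used to choose them. The number of members past the thresholds in tumor ECs was 0 with edgeR, 4 with DESeq2 and 2 without a filter. For all genes of tumor ECs, 97 were lower and 19 higher with DESeq2, 7 lower and 9 higher without a filter, 2 lower with the replicate block, and 1 to 2 lower with each library left out. In sprout ECs 41 genes were lower and 3 higher with the replicate block, 628 lower and 198 higher with DESeq2, 222 higher without a filter, and 135 to 548 lower and 12 to 341 higher with each library left out. List genes lower in sprout ECs were 5 with DESeq2, 6 without a filter, 1 with the replicate block and 1 to 5 with each library left out, which gave 0 to 1 higher. Same-numbered sprout libraries deviated in opposite directions (correlation −0.43), and a replicate block with crossed numbers, chosen after the data were seen, gave 933 genes lower, 302 higher and 6 list genes lower. In tumor ECs these correlations were −0.07, 0.06 and −0.14, so the numbers do not pair libraries. With each library left out, log2 fold changes in sprout ECs ran from −1.19 to 0.48 for Ildr2, −0.32 to 0.038 for Nptx1 and −0.017 to 0.28 for Acpp. In tumor ECs they ran from −2.20 to 3.98 for Ptx3, −1.83 to 0.89 for Nptxr, −0.49 to 0.22 for Adam17 and −0.032 to 0.64 for Hspa8. List genes that did not pass also moved by over 1.5 times, to −6.96 for Acp4 and −2.22 for Adk without KO replicate 2, −3.53 for Ocln and −3.48 for Adora2a without KO replicate 1, 2.76 for Marveld2 without WT replicate 2 and 2.49 for Acp5 without WT replicate 4. Some of them also moved to smaller sizes, with −1.63 for Ocln without KO replicate 2 and −0.96 for Adk without WT replicate 2. Acp5 had 0.53 without KO replicate 1, and the smallest fall of Adora2a over 16 alternatives was −1.59. The block gave −3.54 for Nptx1 and −0.20 for Nptxr, voom gave −0.50 for Acp5, and leaving out 3 libraries gave 0.0037 for Adam17. The cause of each shift was not tested. Levels near 3 counts, as for Acpp in Apelin KO, limit what depth can show.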
